A study of Mus musculus with 48 samples.

Results

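The 10 genes described here belong to the transcriptional programme that activating transcription factor 4 (ATF4) drives in the integrated stress response: *Atf4*, *Atf5*, *Ddit3*, *Trib3*, *Nupr1*, *Chac1*, *Adm2*, *Asns*, *Slc1a4* and *Slc7a11*. They were selected by symbol through the gene annotation, which gives 11 identifiers for them among the 55335 genes of the RNA-seq and Ribo-seq tables. The list was drawn up with values of these data in view: the rises of *Chac1*, *Nupr1* and *Adm2* after depletion of CCDC174 without cycloheximide (CHX), and the fall of *Nupr1* after loss of MTREX, were known. Those comparisons are therefore given as levels without a test. The same holds for the members' CHX response in the *Ccdc174* cells, which is measured from the same libraries lacking CHX.

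The study asked how NRDE2, a nuclear protein that binds the RNA helicase MTREX, and CCDC174, a protein linked to splicing, affect transcripts of mouse embryonic stem cells (mESCs). RNA-seq measures RNA per gene by sequencing fragments of total RNA depleted of ribosomal RNA, and Ribo-seq sequences the fragments that ribosomes protect. There were 28 RNA-seq libraries in 14 groups and 4 Ribo-seq libraries in 2 groups, with 2 libraries in each group. Because a library measures a culture in bulk, fewer cells that express a gene and less RNA per cell cannot be told apart.

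All lines are edited clones of mESCs with a hybrid 129-C57BL/6 background that carry the Cre-ERT2 recombinase, and all were grown in serum, LIF and 2i. *Nrde2*-KO cells carry floxed *Nrde2* and received 4-hydroxytamoxifen (4OHT), which activates Cre-ERT2, at 100 nM for 4 d. *Mtrex*-KO cells carry floxed *Mtrex* and received 100 nM 4OHT for 3 d. *Ccdc174-dTAG* cells carry CCDC174 fused to a degron, together with 3A-tagged floxed *Nrde2*, and received 500 nM dTAG-13, which directs the fusion protein to degradation, for 24 h. *Nrde2*Δ*200* cells, with an amino-terminal truncation of NRDE2, and *Nrde2-D174R* cells, with a point mutation, derive from the 3A-tagged conditional line and received no compound. The wild-type (WT) controls are the untreated floxed or tagged cells, so that the compound and the loss of the protein cannot be told apart. *Nrde2*-KO of the first experiment, *Nrde2*Δ*200* and *Nrde2-D174R* share a single pair of WT libraries. A second *Nrde2*-KO experiment and the *Ccdc174-dTAG* experiment each hold their own WT, and in both of them further libraries of each genotype received CHX, an inhibitor of translation elongation, at 0.1 mg/ml for 4 h.

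In the integrated stress response, kinases that sense amino acid shortage, unfolded protein, double-stranded RNA or heme shortage phosphorylate the initiation factor eIF2, which lowers protein synthesis in general while upstream open reading frames let ATF4 be translated more. ATF4 pairs with C/EBP family proteins on C/EBP-ATF response elements and activates genes of amino acid uptake and synthesis, of redox balance and of its own feedback. CHX blocks the ribosome directly, and inhibitors of translation are also known to stabilize short-lived mRNAs.

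In GENCODE on GRCm38 the transcription factor genes are *Atf4* (ENSMUSG00000042406, chr15:80255184-80257541, plus strand), *Atf5* (ENSMUSG00000038539, chr7:44812256-44816658, minus strand) and *Ddit3* (ENSMUSG00000025408, chr10:127290774-127296288, plus strand). The regulators and effectors are *Trib3* (ENSMUSG00000032715, chr2:152337422-152344032, minus strand), *Nupr1* (ENSMUSG00000030717, chr7:126623249-126630861, minus strand), *Chac1* (ENSMUSG00000027313, chr2:119351229-119354381, plus strand) and *Adm2* (ENSMUSG00000054136, chr15:89322720-89324731, plus strand). The genes of amino acid supply are *Asns* (ENSMUSG00000029752, chr6:7675169-7693254, minus strand), *Slc1a4* (ENSMUSG00000020142, chr11:20302180-20332713, minus strand) and *Slc7a11* (ENSMUSG00000027737, chr3:49892526-50443614, minus strand). The members thus lie at separate loci, and values were counted over all exons of each gene.

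The sequence that the known response element takes was looked for in the promoters, and the matching stretches are shown because the genes were picked as targets of ATF4, which binds it. The windows ran from 250 bases before to 50 bases after the RefSeq transcript start (assembly GRCm38.p6), and the motif searched was TGATGNAA on either strand. A match was present in 6 of the 10 members (60%) and in 1219 of 27025 genes with such a window (4.51%). Of the other lists described at the end, 5 of 13 regulators and secreted factors (38.5%), 2 of 9 serine and one-carbon genes (22.2%), 1 of 13 genes for eIF2 kinases and their partners (7.69%) and 0 of 15 chaperones and related genes held a match. In the tRNA synthetase and transporter lists too few genes had a window. The stricter TGATGCAA was present in 4 members (40%) and in 279 of all genes (1.03%). Each line gives 30 bases of the strand of the gene from 5′ to 3′, with the motif or its reverse complement in capitals.
*Chac1*, chr2:119351038-119351067, plus strand: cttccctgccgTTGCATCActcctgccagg
*Nupr1*, chr7:126625562-126625591, minus strand: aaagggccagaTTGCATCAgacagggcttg
*Trib3*, chr2:152344028-152344057, minus strand: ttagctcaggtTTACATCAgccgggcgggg
*Asns*, chr6:7693214-7693243, minus strand: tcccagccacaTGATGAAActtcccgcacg
*Slc1a4*, chr11:20332699-20332728, minus strand: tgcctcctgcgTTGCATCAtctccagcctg
*Slc7a11*, chr3:50443651-50443680, minus strand: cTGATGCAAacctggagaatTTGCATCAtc

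*Chac1*, *Nupr1* and *Slc1a4* held the same 8 capitals, and *Slc7a11* held them next to a copy in the other orientation. The first base of the motif lay at −193 from the start in *Chac1*, at −110 in *Nupr1*, at −66 and −47 in *Slc7a11*, at −23 in *Asns* and at −4 in *Slc1a4*. In *Trib3* it lay at +15, within the RefSeq transcript but outside the gene span that GENCODE gives. These letters were not in the windows of *Adm2*, *Ddit3*, *Atf4* and *Atf5*, which says only that they are absent from this stretch. The RefSeq start of *Nupr1* lies inside the longer gene span that GENCODE gives, and the motifs of *Nupr1* and *Asns* lie inside their GENCODE spans.

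The RNA-seq libraries held between 28683644 and 36272309 reads in genes and the Ribo-seq libraries between 3475051 and 5035940. Replicates of a group correlated with r between 0.983 and 0.997 across genes, and no source states that they came from separate cultures, so the p-values measure the spread between these libraries, which may be technical. All 10 pluripotency markers were detected in every RNA-seq library, with a summed level between 3265 and 6783 CPM, and none was at 0. The summed level of 5 primitive endoderm markers lay between 4.396 and 23.5 CPM and that of 5 trophectoderm markers between 10.96 and 62.2 CPM. At most 1 gene of each of these lists was at 0. Up to 4 of 5 primitive endoderm markers and up to 3 of 5 trophectoderm markers were below 1 CPM in a library, so that their sums can rest on few genes. Fibroblast markers lay between 1.87 and 5.44 CPM with up to 4 of 7 at 0. *Nrde2* fell by 1.04 on the log2 scale in *Nrde2*-KO of the first experiment (adjusted p = 3.5e-07, limma) and by 1.40 in that of the second (adjusted p = 1.6e-08), and *Mtrex* fell by 1.39 in *Mtrex*-KO (adjusted p = 8.6e-10). With CHX, *Nrde2* was at 254.6 CPM in the libraries labelled *Nrde2*-KO and at 234.7 CPM in WT (log2 difference 0.12, adjusted p = 0.12, limma). These libraries are named by their label throughout. *Nrde2* rose with CHX in all 4 genotypes, 4.42-fold in *Nrde2*-WT and 12.7-fold in the cells labelled *Nrde2*-KO. The rise was 3.87-fold in *Ccdc174*-WT and 4.37-fold in *Ccdc174-dTAG*. It was larger in the cells labelled *Nrde2*-KO than in *Nrde2*-WT by 1.52 on the log2 scale (adjusted p = 9.5e-07, limma). The *Nrde2* level with CHX therefore does not show the knockout in the libraries labelled so. Why *Nrde2* rose, and why it rose more there, was not tested. *Ccdc174* mRNA was at 28.3 CPM in WT and 36.8 CPM in *Ccdc174-dTAG*, which checks nothing because dTAG-13 acts on the protein.

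Levels are given as normalised CPM, that is, CPM divided by a median-of-ratios factor of each library. A change was called where limma gave a Benjamini-Hochberg adjusted p below 0.01 over all genes of a fit together with a fold change of over 2 in either direction (beyond 1 on the log2 scale), on the scale of log2(normalised CPM + 0.25), which understates changes of genes at low levels.

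The members spanned a wide range of abundance. Per kilobase of exon, *Asns*, which encodes asparagine synthetase, was at 495 CPM in WT of the first *Nrde2* experiment, and *Atf4* was at 128 CPM. *Trib3* (12.5), *Nupr1* (11.3), *Chac1* (7.89), *Slc1a4* (7.19), *Ddit3* (4.89) and *Atf5* (4.88) followed in CPM per kilobase, and *Adm2* (0.993) and *Slc7a11* (0.0938) were lowest. *Adm2* thus rested on between 1 and 137 reads per RNA-seq library. The second identifier of *Ddit3*, ENSMUSG00000116429, held 0 reads in every library and overlaps 105 exonic bases of the main *Ddit3* gene on the same strand, so that unique counting may have dropped reads there.

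*Asns*, *Atf5* and *Atf4* varied least of the members across the 28 RNA-seq libraries. The highest library exceeded the lowest 2.64-fold for *Asns*, 3.05-fold for *Atf5* and 3.28-fold for *Atf4*. *Trib3* spanned 5.46-fold, *Chac1* 16.03-fold, *Slc1a4* 21-fold, *Ddit3* 21.4-fold and *Slc7a11* 24.4-fold. *Nupr1* spanned 107.4-fold and *Adm2* 87.9-fold, with the lowest library of both being *Mtrex*-KO replicate 1. The plot of levels by group shows that the group with the highest level was not the same for all members.

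**Figure D1:**
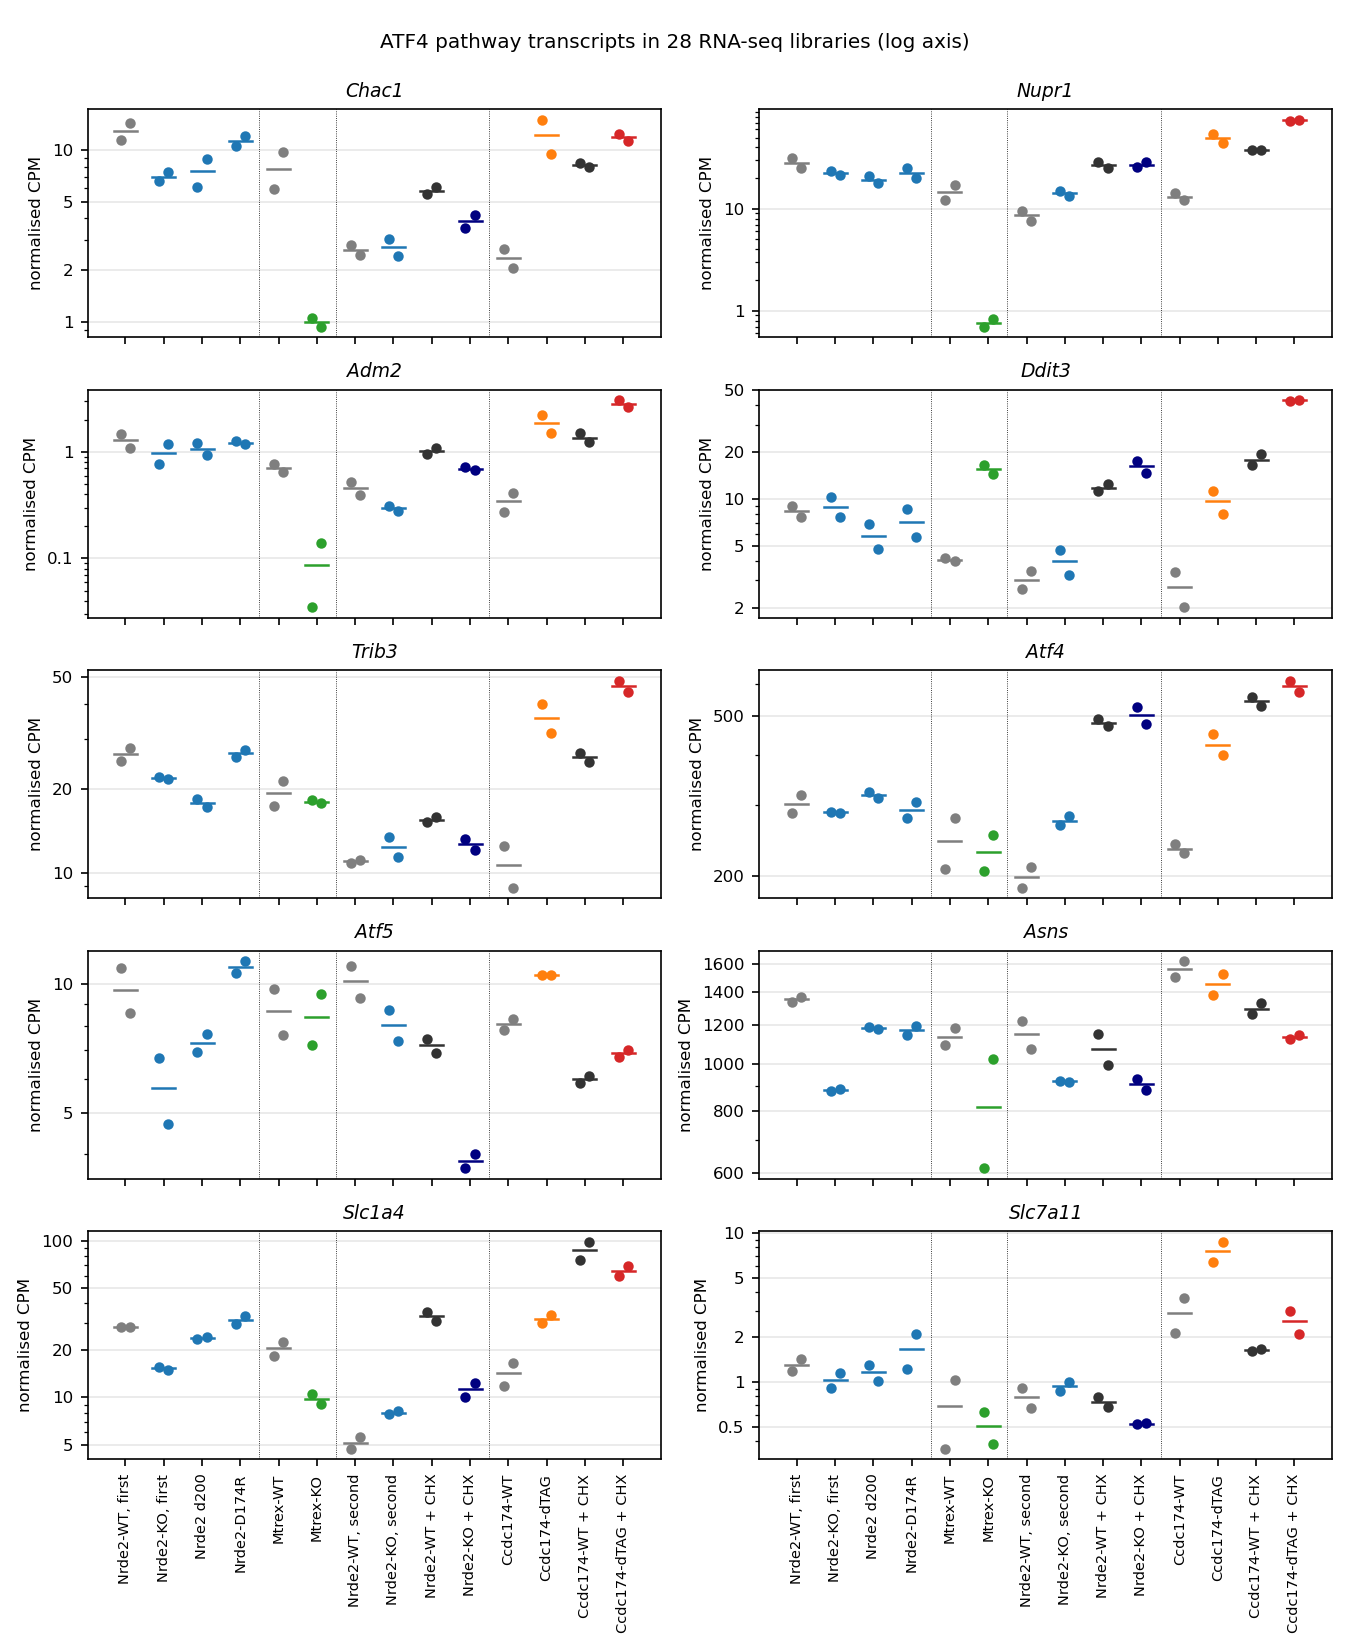
Normalised CPM of the 10 members in the 28 RNA-seq libraries, 1 panel per gene with a log axis and the 14 groups side by side; each point is a library and each horizontal line the mean of a group. *Ddit3* and *Nupr1* reached their highest levels in *Ccdc174-dTAG* with CHX, and *Nupr1*, *Chac1* and *Adm2* their lowest in *Mtrex*-KO.

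Depletion of CCDC174 without CHX was the comparison in which the rises of *Chac1*, *Nupr1* and *Adm2* were seen when the list was made, and it is described without a test. Of the 10 members, 9 had both *Ccdc174-dTAG* libraries above both WT libraries, as 28.7% of all genes did, and the median log2 difference over the members was 1.54, beside 0.02 over all genes. Over all 14889 genes of the fit, 1.38% were called, and 0.228% were called higher.

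Among the transcription factors, *Atf4* was at 239.8 and 228 CPM in *Ccdc174*-WT and at 449.7 and 399 CPM in *Ccdc174-dTAG*, 1.81-fold higher. *Ddit3*, which encodes the C/EBP family protein CHOP, was at 3.39 and 2.02 CPM in WT and at 11.3 and 8.06 CPM after depletion, 3.41-fold higher. *Atf5*, which encodes a factor related to ATF4 that is itself controlled by upstream reading frames, was at 7.82 and 8.29 CPM and then at 10.5 CPM in both libraries, 1.3-fold higher. All 3 had both depleted libraries above both controls.

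The feedback and stress regulators differed in the same direction. *Trib3*, a pseudokinase that binds and restrains ATF4, was at 12.5 and 8.88 CPM in WT and at 40.03 and 31.6 CPM in *Ccdc174-dTAG*, 3.32-fold higher. *Nupr1*, a small stress-induced nuclear protein, was at 14.2 and 12.1 CPM and at 54.5 and 44.3 CPM, 3.70-fold higher. *Chac1*, which encodes an enzyme that degrades glutathione, was at 2.67 and 2.05 CPM in WT and at 15.0 and 9.46 CPM in *Ccdc174-dTAG* (4.70-fold). *Adm2*, which encodes a secreted peptide of the calcitonin family, was at 0.275 and 0.415 CPM in WT and at 2.20 and 1.503 CPM after depletion, 3.51-fold higher, and its log2 difference of 1.81 ranged from 1.08 to 2.42 over the alternatives.

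In the group of amino acid supply, both transporters were higher and the synthetase was not. *Slc1a4*, a transporter of neutral amino acids, was at 11.8 and 16.7 CPM in WT and at 29.9 and 33.4 CPM in *Ccdc174-dTAG* (2.23-fold). *Slc7a11*, the cystine and glutamate exchanger, was at 2.12 and 3.65 CPM and at 6.36 and 8.69 CPM (2.53-fold). *Asns* was at 1503 and 1619 CPM in WT and at 1381 and 1527 CPM in *Ccdc174-dTAG*, and its libraries overlapped. The summed primitive endoderm markers were at 4.57 and 4.396 CPM in WT and 6.61 and 6.75 CPM after depletion, the trophectoderm markers were at 10.96 and 12.03 CPM and at 14.02 and 16.5 CPM, and their part in these differences was not tested.

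**Figure D2:**
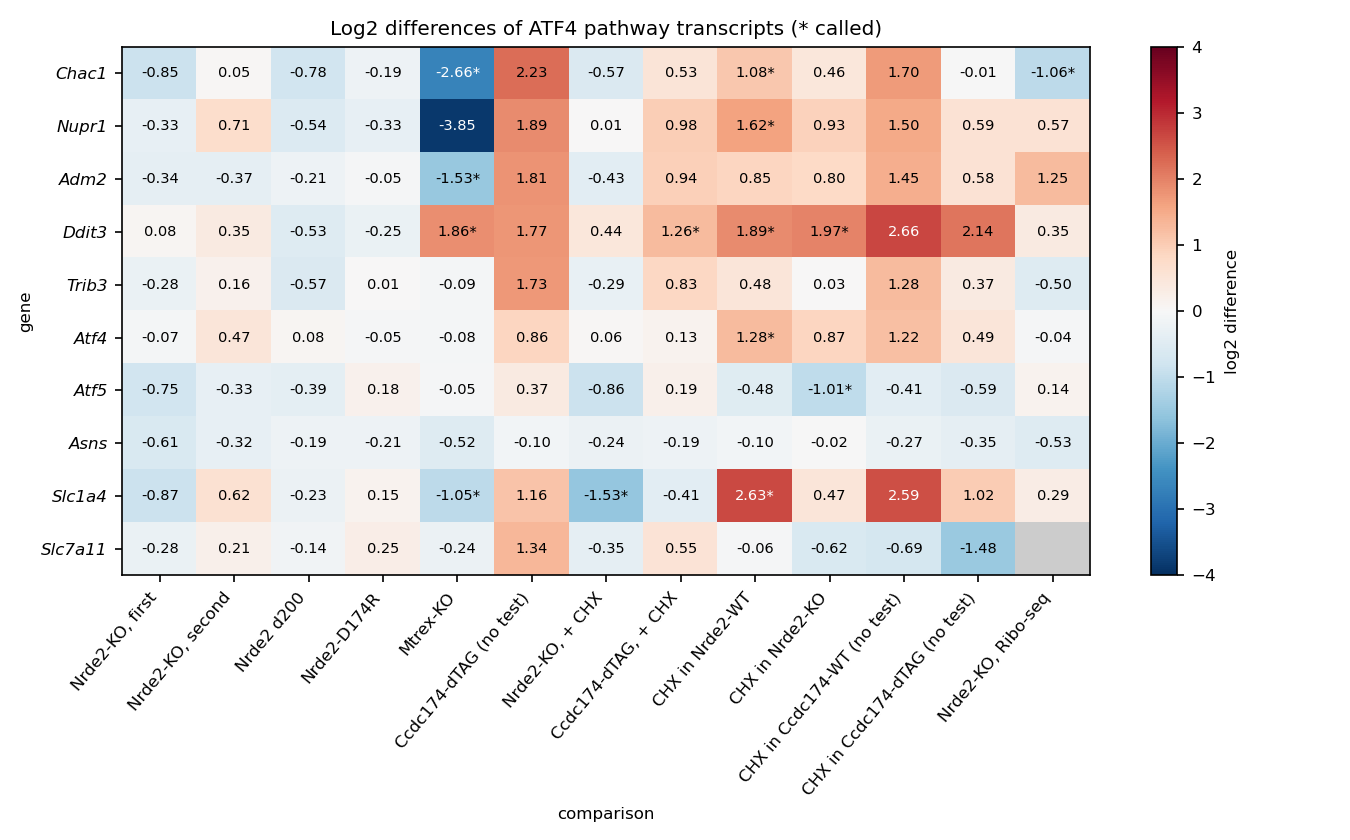
Log2 differences of the 10 members (vertical) in 13 comparisons (horizontal), coloured from blue (lower) to red (higher) with the value in each cell; an asterisk marks a call, the *Ccdc174-dTAG* column without CHX, the CHX columns of both *Ccdc174* genotypes and *Nupr1* in *Mtrex*-KO carry no test, and the grey cell was below the filter. In *Mtrex*-KO *Chac1* stands at −2.66 and *Ddit3* at 1.86.

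The comparison of *Ccdc174-dTAG* with WT in the presence of CHX uses none of the libraries behind the choice. Here *Ddit3* was called higher, and it was the only called member of 10, against 0.911% of 15476 genes called and 0.207% called higher. *Ddit3* was at 16.4 and 19.4 CPM in *Ccdc174*-WT with CHX and at 42.8 and 43.2 CPM in *Ccdc174-dTAG* with CHX, a log2 difference of 1.26 ± 0.11 (SE, adjusted p = 4.1e-05, limma). All 10 members had groups that did not overlap, beside 63.3% of all genes, and 8 of them had *Ccdc174-dTAG* higher, with a member median of 0.54.

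*Nupr1* came close to the fold limit, with 37.4 and 37.8 CPM in WT and 73.4 and 74.98 CPM in *Ccdc174-dTAG* (log2 difference 0.98, adjusted p = 3.6e-05). *Adm2* (0.94, adjusted p = 0.0053) and *Trib3* (0.83, adjusted p = 0.00011) also passed the p threshold without the fold limit. The remaining log2 differences were smaller, at 0.55 for *Slc7a11*, 0.53 for *Chac1* and 0.13 for *Atf4*, and below 0 at −0.41 for *Slc1a4* and −0.19 for *Asns*. None of these had an adjusted p below 0.01. *Adm2* was also called by edgeR and with 0.1 added before the logarithm.

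The effect of CHX was measured in 4 genotypes. The *Nrde2*-WT cells of the second experiment share no library with the choice of members, and there 5 of 10 members rose and none fell, against 14.1% of 15133 genes called and 11.2% called higher. The member median was 0.97. *Atf4* was at 187 and 210.0 CPM without CHX and at 491 and 472 CPM with it, a log2 change of 1.28 ± 0.08 (SE, adjusted p = 8e-09, limma, 2.43-fold). *Ddit3* went from 2.64 and 3.43 CPM to 11.3 and 12.5 CPM (1.89 ± 0.22, adjusted p = 4.9e-06).

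The largest member response in *Nrde2*-WT was that of *Slc1a4*. It was at 4.70 and 5.57 CPM without CHX and at 35.2 and 30.7 CPM with it, 6.17-fold higher (log2 change 2.63 ± 0.17, adjusted p = 1e-08). *Nupr1* rose from 9.57 and 7.62 CPM to 29.0 and 24.9 CPM (1.62, adjusted p = 9.5e-08). *Chac1* rose from 2.79 and 2.44 CPM to 5.54 and 6.07 CPM (1.08, adjusted p = 0.00027), a call that was lost with 1 added before the logarithm (0.91) and without replicate 2 of the WT libraries lacking CHX (0.99).

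The remaining members were not called by limma in *Nrde2*-WT. *Adm2* was at 0.528 and 0.392 CPM and then at 0.963 and 1.09 CPM (log2 difference 0.85, adjusted p = 0.0029), and it was called with 0.1 added before the logarithm (1.02), with CPM as deposited (1.004) and by edgeR (1.17). *Trib3* was at 10.9 and 11.2 CPM and then at 15.2 and 15.8 CPM (0.48, adjusted p = 0.01). *Atf5* had a log2 difference of −0.48 (adjusted p = 0.004), *Asns* of −0.10 and *Slc7a11* of −0.06. The libraries of the last pair of genes overlapped between the treatments, and those of the other 8 members did not, beside 79.7% of all genes. The summed trophectoderm markers went from 27.9 and 20.998 CPM to 51.3 and 43.99 CPM with CHX in these cells, the primitive endoderm markers from 9.69 and 8.13 CPM to 12.7 and 11.7 CPM and the pluripotency markers from 6320 and 6133 CPM to 4302 and 4274 CPM, and their part in the member changes was not tested. These CHX changes depend in size on the scaling: without the median-of-ratios factors the median of all genes shifted by between 0.20 and 0.24 upward in the 4 CHX comparisons, and in *Nrde2*-WT 89.2% of calls were higher in place of 79.3%.

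The CHX comparison in *Ccdc174*-WT cells shares its libraries without CHX with the comparison that chose the members, so it is a description. With CHX, 7 of 10 members were over 2-fold higher and 0 over 2-fold lower. Over all genes 15.3% were called and 12.7% called higher, and nothing is read from the members' count beside these shares. *Ddit3* was 6.31-fold higher, at 16.4 and 19.4 CPM, and *Slc1a4* 6.03-fold higher, with 11.8 and 16.7 CPM without CHX and 74.9 and 98.6 CPM with it. *Atf4* was at 558 and 529.6 CPM with CHX (log2 difference 1.22), *Trib3* at 26.8 and 24.9 CPM (1.28), *Nupr1* at 37.4 and 37.8 CPM (1.5), *Chac1* at 8.43 and 7.93 CPM (1.70) and *Adm2* at 1.501 and 1.23 CPM (1.45).

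*Slc7a11* (log2 difference −0.69), *Atf5* (−0.41) and *Asns* (−0.27) lay below 0 in *Ccdc174*-WT. No member had overlapping groups, and 81.5% of all genes had none. The value of *Slc7a11* was −1.05 without replicate 1 of the WT libraries lacking CHX, and that of *Adm2* was 0.81 with 1 added before the logarithm. The summed trophectoderm markers went from 10.96 and 12.03 CPM to 32 and 33.8 CPM with CHX in these cells, and their part in the member changes was not tested. The CHX effect of *Ccdc174*-WT minus that of *Nrde2*-WT rests on the same libraries and is likewise a description, with 0% of all genes called by limma. Line, experiment and the degron on CCDC174 cannot be told apart in it. The difference of log2 values was 0.80 for *Trib3*, 0.77 for *Ddit3*, 0.62 for *Chac1* and 0.59 for *Adm2*, within 0.2 of 0 for *Atf4*, *Slc1a4*, *Atf5*, *Nupr1* and *Asns*, and −0.63 for *Slc7a11*.

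The CHX comparison in *Ccdc174-dTAG* cells also uses libraries behind the choice and is given without a test. With CHX *Ddit3* and *Slc1a4* were over 2-fold higher and *Slc7a11* over 2-fold lower, beside 14.5% of genes called, 11.9% called higher and 2.68% called lower, and nothing is read from these shares. *Ddit3* was at 11.3 and 8.06 CPM without CHX and at 42.8 and 43.2 CPM with it, 4.41-fold higher. *Slc1a4* was at 29.9 and 33.4 CPM and at 59.9 and 69.3 CPM, a log2 difference of 1.02 that fell under 1 with TMM scaling (0.98), without *Ccdc174-dTAG* replicate 1 lacking CHX (0.94) and without replicate 2 with CHX (0.92). *Slc7a11* was at 6.36 and 8.69 CPM and at 2.98 and 2.10 CPM, 2.79-fold lower.

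For *Chac1* the CHX libraries of *Ccdc174-dTAG* lay within the range of those lacking CHX, with 15.0 and 9.46 CPM without CHX and 12.4 and 11.4 CPM with it (log2 difference −0.01). The CHX effect was less positive or more negative in *Ccdc174-dTAG* than in *Ccdc174*-WT for all 10 members, with a median difference of log2 changes of −0.83. This term contains the comparison that chose the members, so it is a description. Its values were −1.71 for *Chac1*, −1.57 for *Slc1a4*, −0.91 for *Nupr1*, −0.90 for *Trib3*, −0.87 for *Adm2*, −0.79 for *Slc7a11*, −0.73 for *Atf4* and −0.52 for *Ddit3*, and 0.0727% of all genes were called in it.

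**Figure D3:**
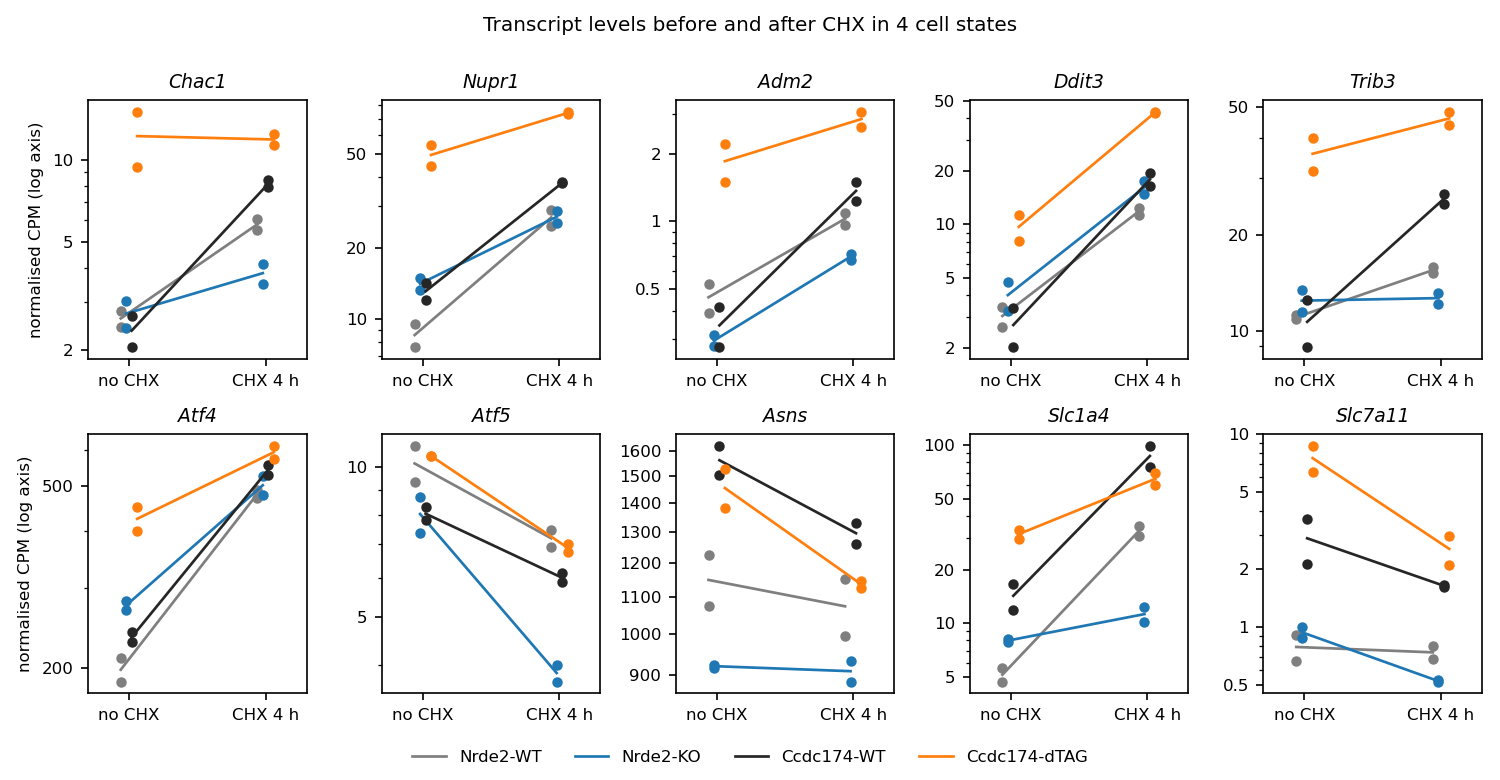
Levels of the members without and with CHX in the 4 genotypes, as normalised CPM on a log axis, with a point per library and lines joining the group means. *Slc1a4* is 6.17-fold higher with CHX in *Nrde2*-WT and 6.03-fold higher in *Ccdc174*-WT, beside 7.81 and 8.15 CPM without and 10.1 and 12.4 CPM with CHX in the cells labelled *Nrde2*-KO.

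In the *Nrde2*-KO cells of the second experiment, CHX raised *Ddit3* and lowered *Atf5*, 2 of 10 members against 14% of genes called, with 10.9% called higher and 3.17% lower. The CHX libraries of this comparison are those in which *Nrde2* mRNA was not below WT, so that it does not show the knockout in them. The rise of *Nrde2* with CHX was larger in these cells than in *Nrde2*-WT, by 1.52 on the log2 scale (adjusted p = 9.5e-07, limma). *Ddit3* was at 4.72 and 3.26 CPM without CHX and at 17.6 and 14.8 CPM in the libraries labelled *Nrde2*-KO with CHX (log2 change 1.97 ± 0.22, adjusted p = 2.9e-06). *Atf5* was at 8.72 and 7.37 CPM and then at 3.71 and 4.01 CPM (−1.01 ± 0.13, adjusted p = 6.9e-06), a call lost with 1 added before the logarithm (−0.89), with CPM as deposited (−0.84), without *Nrde2*-KO replicate 1 lacking CHX (−0.89) and without replicate 1 with CHX (−0.96).

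*Nupr1* (0.93, adjusted p = 2.1e-05) and *Atf4* (0.87, adjusted p = 2.8e-07) stayed under the fold limit in these cells, and both passed it with CPM as deposited, at 1.10 and 1.05. *Nupr1* also passed it without *Nrde2*-KO replicate 1 lacking CHX (1.01) or replicate 1 with CHX (1.005). *Adm2* (0.80, adjusted p = 0.0044) was called with 0.1 added before the logarithm (1.01) and by edgeR (1.24). *Slc1a4* was at 7.81 and 8.15 CPM without CHX and at 10.1 and 12.4 CPM with it (0.47, adjusted p = 0.021). Its response was thus much smaller than the 6.17-fold rise of *Nrde2*-WT. The difference of the CHX effects, *Nrde2*-KO minus *Nrde2*-WT, was −2.15 ± 0.23 for *Slc1a4* (adjusted p = 0.00032, limma, 4.44-fold), the only called member against 0.172% of genes called and 0.0661% called lower. For *Nupr1* it was −0.70 (adjusted p = 0.065), for *Chac1* −0.62 (adjusted p = 0.31) and for *Atf4* −0.41 (adjusted p = 0.079).

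Set against WT with CHX, the libraries labelled *Nrde2*-KO with CHX had *Slc1a4* at 10.1 and 12.4 CPM beside 35.2 and 30.7 CPM, 2.90-fold lower (log2 difference −1.53 ± 0.13, adjusted p = 1.3e-05). *Slc1a4* was the only called member, against 4.57% of 15476 genes called and 1.74% called lower. *Atf5* (−0.86, adjusted p = 0.00024), *Chac1* (−0.57, adjusted p = 0.004) and *Ddit3* (0.44, adjusted p = 0.0067) passed the p threshold below the fold limit. In these labelled libraries 8 of 10 members did not overlap with WT, beside 72.3% of all genes, and the member median was −0.32.

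Loss of NRDE2 without CHX moved no member beyond the fold limit in the first experiment: 0 of 10 were called by limma, edgeR or DESeq2, against 5.01% of 14889 genes. *Slc1a4* was at 28.3 and 28.2 CPM in WT and at 15.6 and 15.0 CPM in *Nrde2*-KO (log2 difference −0.87 ± 0.15, adjusted p = 0.00032). *Asns* was at 1337 and 1369 CPM and at 882 and 887 CPM (−0.61 ± 0.15, adjusted p = 0.0057), and *Atf5* at 10.9 and 8.55 CPM and at 6.72 and 4.71 CPM (−0.75 ± 0.18, adjusted p = 0.0049). *Chac1* was at 11.5 and 14.3 CPM and at 6.57 and 7.44 CPM (−0.85 ± 0.25, adjusted p = 0.014). These 4 were named for their p-values, so nothing further is read from both *Nrde2*-KO libraries lying below both WT libraries. A difference below 0 was found for 9 of 10 members, with a median of −0.34, beside a median of 0 over all genes.

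*Atf4* itself was at 286 and 318 CPM in WT and at 289 and 287 CPM in *Nrde2*-KO (log2 difference −0.07, adjusted p = 0.71), and *Ddit3* differed by 0.08 (adjusted p = 0.85). The summed primitive endoderm markers were at 11.9 and 11.5 CPM in WT and at 20.03 and 17.8 CPM in *Nrde2*-KO. The trophectoderm markers were at 30.4 and 25.7 CPM and at 26.3 and 24.9 CPM. The pluripotency markers were at 6064 and 6344 CPM and at 4661 and 4999 CPM, and the part of these markers in the member values was not tested. In *Nrde2*Δ*200*, which shares the WT pair, 0 of 10 members were called by limma, edgeR or DESeq2 against 2.65% of genes. *Trib3* was at 24.98 and 27.99 CPM in WT and at 18.4 and 17.2 CPM in *Nrde2*Δ*200* (−0.57, adjusted p = 0.015), *Chac1* differed by −0.78 (adjusted p = 0.039) and *Nupr1* by −0.54 (adjusted p = 0.045). In *Nrde2-D174R*, with the same WT pair, 0 of 10 were called by any of these tools against 0.215% of genes, and the member median was −0.05.

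In the second experiment without CHX, 7 of 10 members had a higher mean in *Nrde2*-KO than in WT, beside a median log2 difference over all genes of 0.01. Again there was no call: 0 of 10 by limma, edgeR or DESeq2, against 4.84% of genes. *Nupr1* was at 9.57 and 7.62 CPM in WT and at 15.0 and 13.3 CPM in *Nrde2*-KO (log2 difference 0.71 ± 0.18, adjusted p = 0.0059). *Slc1a4* was at 4.70 and 5.57 CPM and at 7.81 and 8.15 CPM (0.62 ± 0.15, adjusted p = 0.0046), and *Atf4* at 187 and 210.0 CPM and at 268 and 281 CPM (0.47 ± 0.12, adjusted p = 0.0074). These 3 genes were named for their p-values, so nothing further is read from their groups not overlapping.

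The sign of the *Slc1a4* difference was therefore not the same in both *Nrde2*-KO experiments. The *Nrde2*-KO effect of the second minus that of the first, a comparison added after the levels were seen, was 1.49 ± 0.21 for *Slc1a4* (adjusted p = 0.026, limma). No member was called by limma or edgeR, against 0% of genes called by limma, and *Slc1a4* was called by DESeq2. The term was 1.04 for *Nupr1*, 0.90 for *Chac1* and 0.54 for *Atf4*, each with an adjusted p = 0.79 (limma).

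Both *Nrde2*-WT pairs, untreated controls with the same genotype label, also differed from each other in these genes. The comparison was also added after the levels were seen and is a description, and experiment and line cannot be told apart in it. *Slc1a4* was 5.31-fold lower in the second WT pair than in the first, with 4.70 and 5.57 CPM beside 28.3 and 28.2 CPM. *Chac1* was 4.58-fold lower, with 2.79 and 2.44 CPM beside 11.5 and 14.3 CPM, and *Nupr1* 3.24-fold lower, with 9.57 and 7.62 CPM beside 31.4 and 25.4 CPM. *Ddit3* (2.64-fold), *Trib3* (2.37-fold), *Adm2* (2.16-fold) and *Atf4* (1.52-fold) were lower as well, and 9 of 10 members did not overlap, beside 69.7% of all genes. The member median was −1.18, while 2.96% of all genes were called and 1.63% were called lower. *Atf5*, with 10.9 and 8.55 CPM in the first pair and 11.01 and 9.31 CPM in the second, was the member that overlapped.

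Loss of MTREX lowered *Chac1*, *Adm2* and *Slc1a4* and raised *Ddit3*, 4 of the 9 members tested, against 26.7% of 14889 genes called, with 15.8% higher and 10.9% lower. *Chac1* was at 5.91 and 9.69 CPM in *Mtrex*-WT and at 1.05 and 0.937 CPM in *Mtrex*-KO, 6.31-fold lower (log2 change −2.66 ± 0.25, adjusted p = 5.1e-08, limma). *Adm2* held 51 reads over both WT libraries and 5 over both *Mtrex*-KO libraries, a ratio of scaled reads of 0.122 with an exact 95% interval of 0.0381 to 0.304 that covers counting error only. On the log2 scale *Adm2* changed by −1.53 ± 0.26 (adjusted p = 5.2e-05), and the value ranged from −3.04 to −0.66 over the alternatives and lost its call with 1 added before the logarithm.

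*Nupr1*, whose fall in this comparison was known when the list was made, was at 12.1 and 16.9 CPM in WT and at 0.698 and 0.833 CPM in *Mtrex*-KO, a 14.4-fold lower level given without a test. *Slc1a4* went from 18.4 and 22.7 CPM to 10.6 and 9.02 CPM, 2.06-fold lower (log2 change −1.05 ± 0.15, adjusted p = 8.5e-06), and this call was lost with 1 added before the logarithm (−0.99), without *Mtrex*-WT replicate 2 (−0.90) and without *Mtrex*-KO replicate 2 (−0.93). *Ddit3* went the other way, from 4.19 and 3.99 CPM to 16.5 and 14.5 CPM, 3.63-fold higher (1.86 ± 0.26, adjusted p = 7.6e-06).

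*Atf4* was at 208 and 279 CPM in *Mtrex*-WT and at 206 and 253 CPM in *Mtrex*-KO (log2 difference −0.08, adjusted p = 0.57), and *Trib3* at 17.3 and 21.2 CPM and at 18.2 and 17.7 CPM (−0.09, adjusted p = 0.6). *Asns*, at 1092 and 1182 CPM and at 613 and 1023 CPM, differed by −0.52 (adjusted p = 0.0061), with the *Mtrex*-KO replicates far apart. The scaling matters in this comparison: with CPM as deposited the median of all genes was −0.38 and 34.1% of calls were higher in place of 59.3%, *Atf4* and *Trib3* both stood at −0.48, and *Ddit3* lay between 1.47 and 1.92 over the alternatives and between 1.77 and 1.95 when 1 library was left out. The trophectoderm markers summed to 33.2 and 29.9 CPM in *Mtrex*-WT and to 62.2 and 37.9 CPM in *Mtrex*-KO. The primitive endoderm markers summed to 11.02 and 10.6 CPM and to 15.98 and 14.4 CPM. The pluripotency markers summed to 6525 and 6783 CPM and to 5014 and 5974 CPM, and the part of these markers in the member changes was not tested.

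Ribo-seq compared *Nrde2*-KO with WT by ribosome-protected fragments, and 1 of 9 members tested was called, against 6.42% of 13857 genes and 2.8% lower. *Chac1* was at 4.96 and 5.07 CPM in WT and at 3.06 and 1.69 CPM in *Nrde2*-KO (log2 change −1.06 ± 0.30, adjusted p = 0.0093), on between 13 and 38 reads. This call was lost without WT replicate 1 (adjusted p = 0.027), WT replicate 2 (adjusted p = 0.034) or *Nrde2*-KO replicate 2 (adjusted p = 0.1) and with DESeq2 (adjusted p = 0.14). *Asns* was at 444 and 493 CPM and at 322 and 327 CPM, a log2 difference of −0.53 ± 0.08 (adjusted p = 1.8e-05), and *Atf4* was at 42.1 and 43.0 CPM and at 40.3 and 42.8 CPM (−0.04, adjusted p = 0.81). *Slc7a11*, with between 2 and 4 reads per Ribo-seq library, was below the filter and was not tested. *Adm2* was measured by 2 and 3 reads in WT and by 6 and 9 reads in *Nrde2*-KO (log2 difference 1.25, adjusted p = 0.058).

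The occupancy of a transcript was described as the Ribo-seq level divided by the RNA-seq level of the first experiment, both as normalised CPM. Both levels were counted over all exons, so that the ratio also depends on how much of a transcript is untranslated. Duplicate reads were removed from the Ribo-seq and not stated to be removed from the RNA-seq, so that the ratio also sets unlike counts side by side. In WT the median ratio over 12788 genes was 0.5. *Nupr1* had the lowest ratio of the members at 0.0721, the 0.712th percentile of all genes, on between 15 and 25 reads per Ribo-seq library. *Atf4* followed at 0.141, the 4.33rd percentile. The ratios of *Adm2* (0.257), *Ddit3* (0.307), *Asns* (0.346), *Trib3* (0.372), *Chac1* (0.388) and *Atf5* (0.434) were also under the median of all genes. *Slc1a4* was the only member above it, at 0.982. With RNA-seq of the second experiment in place of the first, an alternative chosen after the data were seen, the order was another: *Atf4* (0.214) was lowest, *Nupr1* stood at 0.238, and *Slc1a4* (5.40), *Chac1* (1.92), *Trib3* (0.893), *Ddit3* (0.847) and *Adm2* (0.719) lay above the median of all genes (0.492). The background on upstream reading frames concerns *Atf4*, *Atf5* and *Ddit3*, whose reads per gene here do not separate the upstream frames from the coding sequence.

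In *Nrde2*-KO the ratio of *Slc1a4* was 2.21, that of *Atf4* 0.144 and that of *Nupr1* 0.141, beside a median over all genes of 0.503. With RNA-seq of the second experiment these ratios were 4.26, 0.151 and 0.223, so that *Slc1a4* was lower in *Nrde2*-KO than in WT. With that of the first, *Adm2* went from 0.257 in WT to 1.16 in *Nrde2*-KO and *Atf5* from 0.434 to 0.825, both past the median. With that of the second they went from 0.719 to 3.81 and from 0.415 to 0.586. *Adm2* rests on between 2 and 9 reads per Ribo-seq library. *Slc1a4* fragments were at 25.7 and 29.8 CPM in WT and at 35.4 and 32.5 CPM in *Nrde2*-KO, while its RNA was lower in *Nrde2*-KO of the first experiment. The *Nrde2*-KO effect in Ribo-seq minus that in RNA-seq was 1.16 ± 0.15 for *Slc1a4* (log2, adjusted p = 6e-04, limma, 2.24-fold), the only called member against 1.39% of genes called and 1.06% called higher. With the RNA-seq libraries of the second experiment in place of the first, the same term was −0.32 (adjusted p = 0.33) and 0 members were called, so that the value depends on which RNA-seq experiment is set beside the Ribo-seq.

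**Figure D4:**
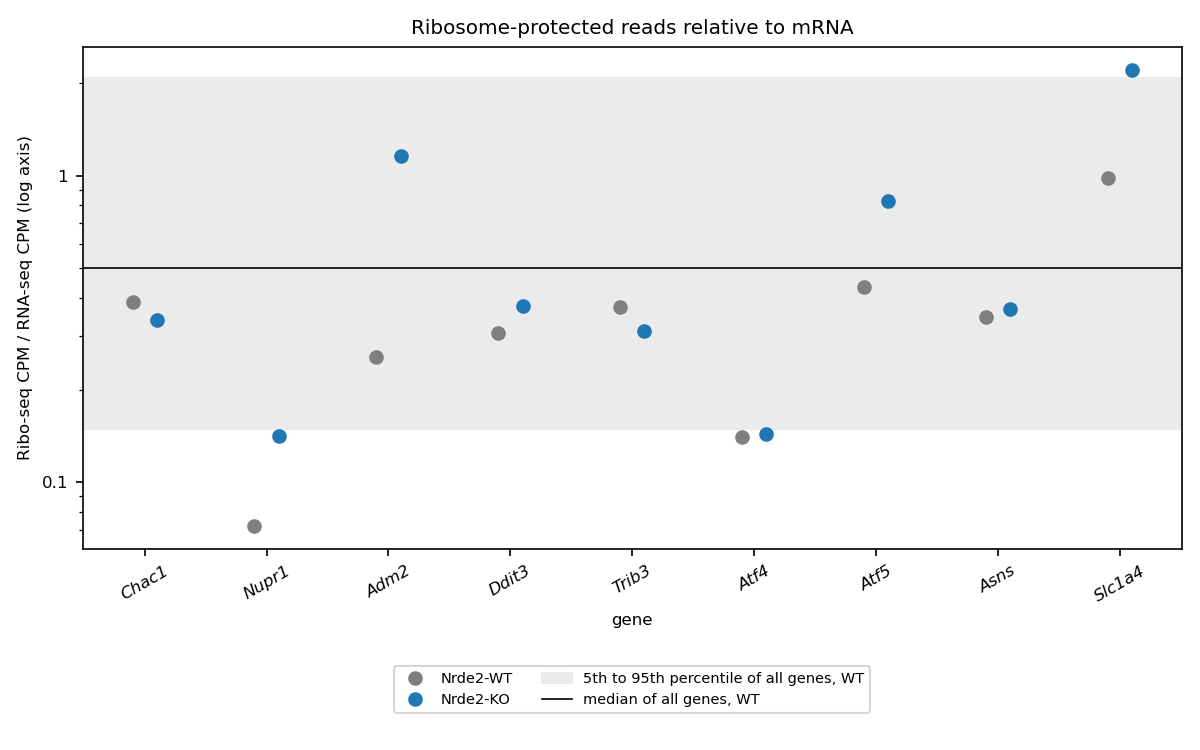
Ratio of Ribo-seq to RNA-seq normalised CPM for the 9 members tested in both, in WT and *Nrde2*-KO, on a log axis, with the median of all genes in WT as a line and their 5th to 95th percentile as a grey band; each point is a ratio of group means. With RNA-seq of the first experiment, which is plotted, *Nupr1* and *Atf4* lie lowest in both genotypes and *Slc1a4* moves from 0.982 to 2.21, while with that of the second *Slc1a4* moves from 5.40 to 4.26.

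Other genes of the ATF4 pathway and of the response to unfolded protein were taken from 6 lists, with 80 genes in all. The lists were written from general knowledge while earlier results of these data were known, so that their calls are not an independent test. The serine and one-carbon synthesis list, 11 known ATF4 targets, had 8 genes lowered and 0 raised in *Mtrex*-KO with a median of −1.95, where 10.9% of all genes were called lower and 15.8% higher. *Phgdh*, the entry enzyme of serine synthesis, went from 29.9 to 3.39 CPM (log2 change −3.02), and *Psat1*, the aminotransferase that follows it, from 373 to 51.7 CPM (−2.85). In *Nrde2*-KO of the first experiment 4 of the 11 fell and 0 rose, beside 5.01% of all genes called and 3.02% called higher. The list median was −0.93, and the falls were led by *Aldh1l2* (−1.59), a mitochondrial folate enzyme, and *Aldh18a1* (−1.32), an enzyme of proline synthesis. Of the same 11 genes, 2 fell in the second *Nrde2*-KO experiment, *Aldh1l2* (−1.56) and *Aldh18a1* (−1.03), beside 4.84% of all genes called and 2.41% called higher. In the libraries labelled *Nrde2*-KO with CHX 2 of the 11 fell, beside 1.74% of all genes called lower. None was called in *Ccdc174-dTAG* without CHX, where the median was 0.16, or with CHX in any of the 4 genotypes.

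Of 14 aminoacyl-tRNA synthetase genes, which load tRNAs with amino acids, 6 fell in *Mtrex*-KO and 0 rose, beside 10.9% and 15.8% of all genes, with *Sars* (−1.53) and *Vars* (−1.48) lowest. *Vars*, which encodes the valine enzyme, was the only called gene of this list in *Nrde2*-KO of the first experiment (231 to 67.5 CPM, −1.77), in that of the second (−1.73), in *Nrde2*Δ*200* (−1.01) and in *Ccdc174-dTAG* without CHX (195 to 72.3 CPM, −1.45). Over all genes 5.01%, 4.84%, 2.65% and 1.38% were called in these comparisons, in that order. *Vars* also fell in Ribo-seq (−2.04), beside 2.8% of all genes called lower. Of 7 amino acid transporters, *Slc6a9* (−1.5), which carries glycine, and *Slc7a5* (−1.02), which carries large neutral amino acids, fell in *Mtrex*-KO, beside 10.9% of all genes. *Slc38a2*, a transporter of small neutral amino acids, fell with CHX by 1.81 in *Nrde2*-WT, 1.34 in *Nrde2*-KO, 2.10 in *Ccdc174*-WT and 2.39 in *Ccdc174-dTAG* on the log2 scale, the direction opposite to that of *Slc1a4* in both WT lines. Over all genes 14.1%, 14%, 15.3% and 14.5% were called in these CHX comparisons, in that order.

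The list of other regulators and secreted factors had 14 tested genes. In *Mtrex*-KO 5 rose and 3 fell, beside 15.8% and 10.9% of all genes, with *Atf3* at 3.03 and *Ddit4* at 1.95, and with *Jdp2* at −2.66 and *Vegfa* at −2.20. *Atf3*, a stress-induced factor that ATF4 activates, also rose with CHX in all 4 genotypes, with log2 changes of 2.49 in *Nrde2*-WT, 2.82 in *Nrde2*-KO, 2.96 in *Ccdc174*-WT and 1.65 in *Ccdc174-dTAG*. Beside it 11.2%, 10.9%, 12.7% and 11.9% of all genes were called higher with CHX, in that order. In *Ccdc174-dTAG* without CHX, the comparison behind the choice of the members, 2 of the 14 were called higher and 0 lower. Over all genes 0.228% were called higher. The called genes were *Vldlr* (1.49), a lipoprotein receptor, and *Cebpb* (1.29), a C/EBP partner of ATF4, and the list median was 0.66. The libraries labelled *Nrde2*-KO with CHX had 4 called higher than WT and 0 lower, beside 4.57% of all genes called and 2.83% called higher. These rises were led by *Ddit4* (1.36), an inhibitor of mTORC1 signalling, and *Gdf15* (1.28), a secreted stress cytokine.

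Of 16 genes for eIF2 kinases and their partners, *Gcn1l1*, which encodes the activator of the kinase GCN2, fell in *Nrde2*-KO of the first experiment (247 to 105 CPM, −1.23), in that of the second (−1.32), in *Ccdc174-dTAG* without CHX (205 to 90.3 CPM, −1.18) and in Ribo-seq (−1.86). Over all genes 5.01%, 4.84%, 1.38% and 6.42% were called in these comparisons, in that order. *Eif2ak3*, which encodes the kinase PERK of the endoplasmic reticulum, rose in Ribo-seq of *Nrde2*-KO from 26.3 to 55.2 CPM (1.06), beside 3.62% of all genes called higher. Of 17 endoplasmic reticulum chaperones and related genes, a separate arm of the response to unfolded protein, 0 were called in *Ccdc174-dTAG* without CHX. Over all genes 1.38% were called, and the chaperone median there was −0.04, beside 0.02 over all genes. In *Mtrex*-KO *Syvn1* (1.33), a ubiquitin ligase, rose, and 3 fell, beside 15.8% and 10.9% of all genes, with *Pdia6* (−1.35) and *Hsp90b1* (−1.21) lowest.

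**Figure D5:**
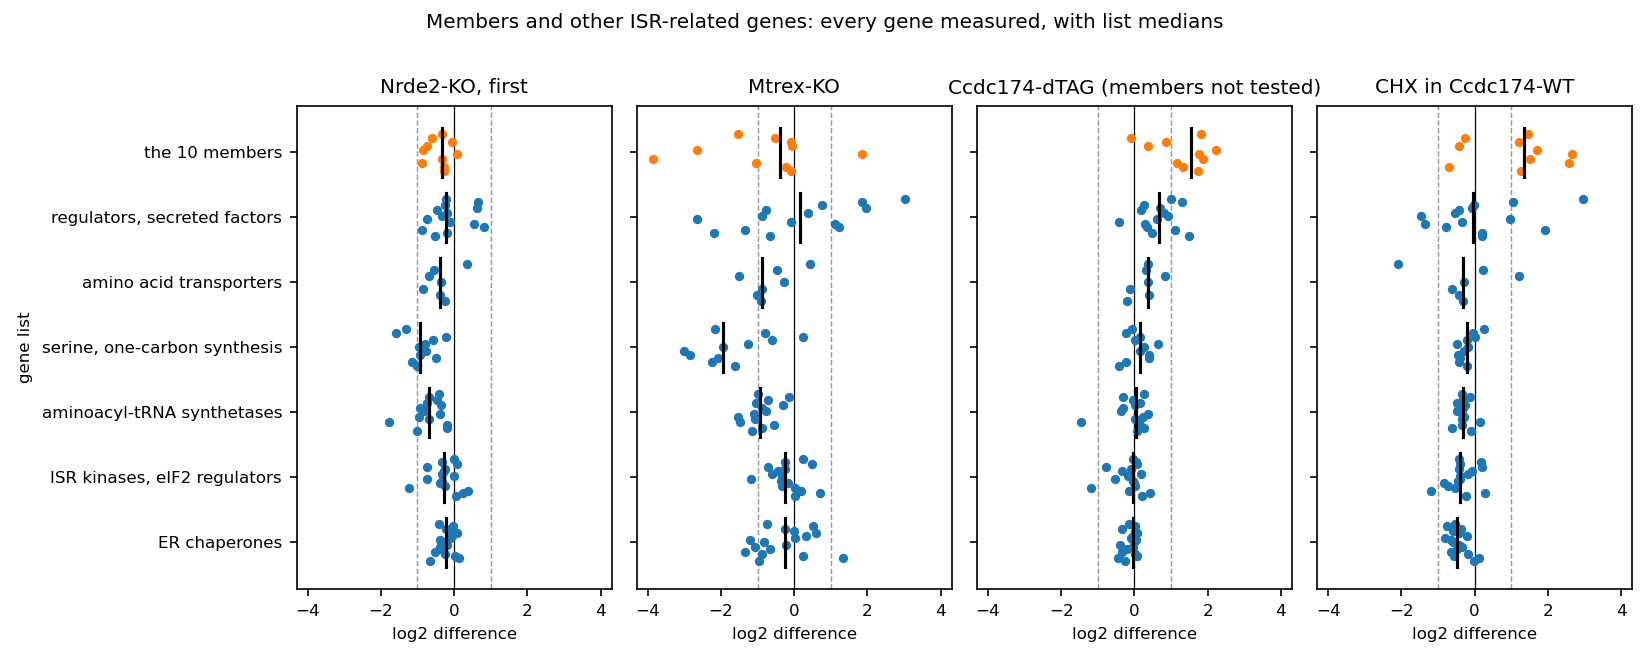
Log2 differences (horizontal) of the members and of the genes of the 6 lists (vertical) in *Nrde2*-KO of the first experiment, *Mtrex*-KO, *Ccdc174-dTAG* without CHX and CHX in *Ccdc174*-WT, with a point per gene, a thick line at each median and dashed lines at −1 and 1. In *Mtrex*-KO the serine and one-carbon list is centred at −1.95, and in *Ccdc174-dTAG* without CHX the chaperones are centred at −0.04. The members are centred at 1.54 in the latter, the comparison behind their choice, so nothing is read from their distance to the lists.

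The members did not all follow the same course over the groups. Over the 14 RNA-seq group means of log2 levels, the correlation of each member with the mean of the other 9 was 0.923 for *Adm2*, 0.844 for *Slc1a4*, 0.841 for *Chac1*, 0.799 for *Trib3*, 0.762 for *Nupr1* and 0.638 for *Slc7a11* (Pearson's r, a description over groups that share experiments). It was 0.605 for *Atf4*, 0.473 for *Asns*, 0.383 for *Ddit3* and −0.0238 for *Atf5*. The groups include *Ccdc174-dTAG* without CHX, its WT and *Mtrex*-KO, whose values were in view when the list was made. The correlations of *Chac1*, *Nupr1* and *Adm2* are thus partly built in, and nothing is read from their size. *Ddit3* was nearer to *Atf4* itself, with r of 0.792, and *Atf5* had an r of −0.514 with *Atf4*. Among 13349 genes that reached a mean of 1 CPM, those outside the lists whose group means were most like *Chac1* were *Plekhh3* (0.931), *Ciita* (0.931), *Gm10351* (0.911), *Amhr2* (0.905) and *Srl* (0.896). Those most like the mean of all 10 members were *Col26a1* (0.934), *Dnajc4* (0.918), *Ubap1l* (0.916), *B4galnt2* (0.894) and *Slc25a33* (0.892).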

How the data were processed

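RNA-seq and Ribo-seq of mESCs were analysed, and the BCLIP-seq samples of the series were not analysed here. Reads were mapped by the authors to mm10 using STAR, with version 2.7.3a for RNA-seq and 2.7.0a for BCLIP-seq, and Ribo-seq was mapped as RNA-seq was. Unique, strand-matched reads were assigned to GENCODE genes by featureCounts, and the deposited unit is CPM. Ribo-seq reads were first trimmed and collapsed to remove duplicates. Duplicates were not stated to be removed from the RNA-seq, and unique counting leaves out reads shared between near-identical genes. Genes were named through GENCODE on GRCm38, which holds 55154 of the 55335 identifiers.

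CPM were divided by median-of-ratios factors, 0.25 was added and log2 taken. limma 3.58.1 (R 4.3.3), with its trend option and moderated variances, was fitted to genes averaging 0.5 CPM or more, in separate fits for 20 libraries without CHX, 8 with CHX, 16 of both CHX experiments, 4 of Ribo-seq and 8 of Ribo-seq with RNA-seq of the first experiment. All groups of a fit shared their estimate of the spread. Every adjusted p is from limma with Benjamini-Hochberg adjustment over all genes of the fit unless edgeR or DESeq2 is named. Because 100% of values lay within 0.1 of a whole read, the reads were recovered and tested with DESeq2 1.42.0 and with the quasi-likelihood test of edgeR 4.0.16 as alternatives. The other alternatives were an addition of 0.1 or 1, no filter or 1 CPM, CPM as deposited, TMM factors, fits of the compared groups alone, a replicate block and leaving out each library in turn. The scripts were tested on simulated data.

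Members and lists were chosen with earlier results of these data known, and the members' CHX contrasts in *Ccdc174* cells, planned as tests, are given without one because their untreated libraries were used in that choice. All 10 members are named, together with at most 2 called genes per list, comparison and direction, the targeted genes, and the 5 genes most like *Chac1* and the 5 most like the member mean. Promoter motifs were counted in RefSeq windows, and lists in which fewer than 80% of genes had a window were left out.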

Additional observations from a re-analysis of the deposited data

Results flagged for a closer look

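*Slc1a4* responded to CHX differently in both *Nrde2* genotypes of the second experiment. The CHX effect in the libraries labelled *Nrde2*-KO minus that in *Nrde2*-WT was −2.15 on the log2 scale by the interaction term of limma (adjusted p = 0.00032). *Nrde2* mRNA in these labelled libraries was not below WT with CHX, so it does not show the knockout there. CHX raised *Nrde2* in every genotype, and by 1.52 more on the log2 scale in *Nrde2*-KO than in *Nrde2*-WT (adjusted p = 9.5e-07, limma). A second difference between effects was that of *Nrde2*-KO on *Slc1a4* in Ribo-seq, which exceeded that in RNA-seq of the first experiment by 1.16 on the log2 scale (adjusted p = 6e-04) and was not found with RNA-seq of the second experiment (−0.32, adjusted p = 0.33). No source used here states which RNA-seq experiment shares its cultures with the Ribo-seq.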

How the results depend on the processing

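Counts of called members moved by over 1.5 times as follows. With 1 added before the logarithm, *Mtrex*-KO had 2 called members in place of 4, CHX in *Nrde2*-KO 1 in place of 2 and Ribo-seq 0 in place of 1. CHX in *Nrde2*-WT moved less, from 5 to 4 with 1 added (*Chac1* lost) and to 6 with 0.1 added, CPM as deposited and edgeR (*Adm2* gained), and CHX in *Nrde2*-KO to 3 with 0.1 added and edgeR (*Adm2* gained) and with CPM as deposited (*Nupr1* and *Atf4* gained, *Atf5* lost). Ribo-seq also had 0 with no filter, with CPM as deposited and with DESeq2. *Ccdc174-dTAG* with CHX had 2 (*Ddit3* and *Adm2*) with 0.1 added and with edgeR. The *Nrde2*-KO effect of the second experiment minus that of the first had 1, *Slc1a4*, with DESeq2. The Ribo-seq effect minus the RNA-seq effect had 0 with RNA-seq of the second experiment, where *Slc1a4* turned to −0.32. The member median in *Ccdc174-dTAG* without CHX (1.54) was 1.13 with 1 added and 1.34 with the filter at 1 CPM, and that of the second *Nrde2*-WT against the first (−1.18) was −0.92 with 1 added, −1.37 with edgeR and −1.37 with DESeq2. That for CHX in *Ccdc174*-WT (1.36) was 1.40 with 0.1 added, 1.22 with 1 added, 1.57 with CPM as deposited, 1.32 with TMM and 1.43 with edgeR, and that for CHX in *Ccdc174-dTAG* (0.43) was 0.67 with CPM as deposited. The median ratio of Ribo-seq to RNA-seq, 0.346 in WT and 0.367 in *Nrde2*-KO, was 0.719 and 0.586 with RNA-seq of the second experiment, an alternative chosen after the data were seen.

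Leaving out each library in turn gave between 3 and 4 called members in *Mtrex*-KO, between 4 and 5 for CHX in *Nrde2*-WT and between 0 and 1 in Ribo-seq. The *Nrde2*-KO effect of the second experiment minus that of the first had between 0 and 1, with 1 without replicate 1 or replicate 2 of *Ccdc174*-WT lacking CHX. The median in *Ccdc174-dTAG* lay between 1.31 (without *Ccdc174*-WT replicate 1) and 1.54, that of the WT pairs between −1.23 and −1.11, that for CHX in *Ccdc174*-WT between 1.28 and 1.41, and that for its CHX effect minus that of *Nrde2*-WT between −0.0376 and 0.161. When a group was left with a single library, that library was assumed to vary like the other groups.

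The replicate numbers are not stated to pair libraries. Deviations of same-numbered libraries correlated between −0.372 and 0.437 over 92 pairs of groups, and 35 exceeded 0.1. Within an experiment they correlated at 0.426 for *Mtrex*, between 0.212 and 0.437 for *Ccdc174* and between 0.137 and 0.419 for the second *Nrde2* experiment. In the first *Nrde2* experiment and its mutants they lay between −0.0601 and 0.319, and in Ribo-seq at −0.0304. The lowest value was between groups of different experiments. A shared batch of same-numbered libraries was not tested. With the replicate block, 1 member (*Slc1a4*, adjusted p = 0.0095) was called for the *Nrde2*-KO effect of the second experiment minus that of the first, and the counts of called members in the other comparisons kept their value.

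Over all genes, 1 added before the logarithm lowered calls from 746 to 398 in *Nrde2*-KO, from 395 to 218 in *Nrde2*Δ*200*, from 720 to 474 in the second *Nrde2*-KO, from 206 to 137 in *Ccdc174-dTAG*, from 441 to 206 between the WT pairs and from 707 to 398 in the libraries labelled *Nrde2*-KO with CHX. For CHX it lowered them from 2133 to 1343 in *Nrde2*-WT, from 2122 to 1388 in *Nrde2*-KO, from 2315 to 1473 in *Ccdc174*-WT and from 2200 to 1391 in *Ccdc174-dTAG*. Calls went from 32 to between 5 (no filter) and 72 (DESeq2) in *Nrde2-D174R*, from 141 to 49 (no filter) in *Ccdc174-dTAG* with CHX, from 890 to 561 (no filter) and 562 (DESeq2) in Ribo-seq, from 26 to between 8 (compared groups alone) and 58 (DESeq2) for the CHX effect of *Nrde2*-KO minus WT, from 11 to 0 (compared groups alone) for that of *Ccdc174-dTAG* minus WT, and, with DESeq2, from 0 to 8 for that of *Ccdc174*-WT minus *Nrde2*-WT and from 0 to 3 for the *Nrde2*-KO effect of the second experiment minus the first. The cause was not tested.

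With CPM as deposited, the share of calls that were higher went from 77.4 to 88.1% for CHX in *Nrde2*-KO, from 82.9 to 91.6% in *Ccdc174*-WT, from 81.6 to 92.2% in *Ccdc174-dTAG*, from 56.4 to 75.5% in Ribo-seq, from 76.4 to 90.5% for Ribo-seq minus RNA-seq, and from 45.1 to 26.6% between the WT pairs. *Adm2*, *Slc7a11* and, in Ribo-seq, *Chac1* and *Nupr1* rest on few reads, which limits their precision most.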
